A study of Mus musculus with 4 samples.

Results

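The genes described here mark the immune cells that live in or pass through skin, namely macrophages, Langerhans cells, mast cells and T cells. They are 43 genes fixed by symbol, and a probe set counted for a gene where the platform annotation names that gene alone. Of the 43, 42 were measured on the first of 2 array types, out of 8251 named genes there, through 58 probe sets. The second type measured 2 of them, Cybb and H2-Eb1, out of 7542 named genes, and both of these are also on the first type. Cd207, which encodes langerin, the lectin that defines Langerhans cells, has no signal analysed here and enters only the count of promoter motifs. A gene took the value of its probe set with the highest mean signal on a type.

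Whole skin was taken on postnatal day 0 from loricrin knockout mice and from wildtype mice, all of strain FVB/N, and its total RNA was hybridised to 4 arrays. Each array type held 1 loricrin knockout array and 1 wildtype array. The mice had no stated treatment, and the loricrin allele, the animals behind each array and any pooling are not given in the sources used. The array titled a replicate in each genotype lies on the second type, so no ratio within a type has a replicate, and no test was possible there. The comparison asks whether immune cell transcripts of newborn skin differ when loricrin, which makes up much of the cornified envelope around the outermost skin cells, is missing.

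Macrophages of the dermis take up debris and microbes, carry the receptor for colony-stimulating factor 1 on which their survival depends, and make much of the complement protein C1q found in tissue. Langerhans cells are macrophage-like antigen-presenting cells of the epidermis that load peptides onto MHC class II molecules, and newborn mouse skin has few that have matured. Mast cells of the dermis store proteases, such as tryptase and chymase, in granules and are armed by the high-affinity IgE receptor. Many of the genes in macrophages are switched on by PU.1, the product of Spi1, which binds a short purine-rich sequence called the PU box, while mast cell genes often depend on GATA factors.

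Promoter windows of 5 of these genes show those letters and are given because C1qb and C1qc, which are neighbours, had ratios close to 0, Ctss and Cd53 hold the longer PU.1 motif, and Cpa3 is a mast cell gene that stayed below the level of measurement. Each window runs from 250 bases before to 50 bases after the RefSeq start of the gene on build GRCm38.p6, 5′ to 3′ on the gene's strand. The positions are chr4:136886151-136886450 for C1qb, chr4:136892865-136893164 for C1qc, chr3:95526536-95526835 for Ctss, chr3:106790100-106790399 for Cd53 and chr3:20242132-20242431 for Cpa3. The Ctss window lies on the plus strand and the others on the minus strand. Capitals mark the PU box (GAGGAA), the longer motif that contains it (GAGGAAGT) and a GATA motif (AGATAA), each on either strand.
C1qb: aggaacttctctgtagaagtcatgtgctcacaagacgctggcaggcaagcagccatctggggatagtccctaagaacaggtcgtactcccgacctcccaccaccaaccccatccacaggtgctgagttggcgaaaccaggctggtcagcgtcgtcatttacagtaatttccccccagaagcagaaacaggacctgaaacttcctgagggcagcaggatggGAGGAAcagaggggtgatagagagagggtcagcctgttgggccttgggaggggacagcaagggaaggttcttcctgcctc
C1qc: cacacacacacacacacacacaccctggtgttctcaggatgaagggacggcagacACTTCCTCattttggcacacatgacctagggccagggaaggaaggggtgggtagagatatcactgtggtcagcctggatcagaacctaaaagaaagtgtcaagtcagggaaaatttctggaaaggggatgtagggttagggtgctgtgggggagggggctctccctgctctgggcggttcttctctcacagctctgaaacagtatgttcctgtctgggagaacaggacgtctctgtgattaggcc
Ctss: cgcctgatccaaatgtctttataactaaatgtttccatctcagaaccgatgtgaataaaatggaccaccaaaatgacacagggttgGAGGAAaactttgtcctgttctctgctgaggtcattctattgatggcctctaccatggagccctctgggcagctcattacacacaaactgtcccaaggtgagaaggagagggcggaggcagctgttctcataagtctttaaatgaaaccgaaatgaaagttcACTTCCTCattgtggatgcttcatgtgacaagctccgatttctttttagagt
Cd53: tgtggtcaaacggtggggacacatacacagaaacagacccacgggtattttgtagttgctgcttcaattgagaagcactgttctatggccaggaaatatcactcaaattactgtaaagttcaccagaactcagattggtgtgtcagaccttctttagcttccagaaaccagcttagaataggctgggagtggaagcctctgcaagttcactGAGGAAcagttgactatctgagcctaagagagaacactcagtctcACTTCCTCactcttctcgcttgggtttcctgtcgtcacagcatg
Cpa3: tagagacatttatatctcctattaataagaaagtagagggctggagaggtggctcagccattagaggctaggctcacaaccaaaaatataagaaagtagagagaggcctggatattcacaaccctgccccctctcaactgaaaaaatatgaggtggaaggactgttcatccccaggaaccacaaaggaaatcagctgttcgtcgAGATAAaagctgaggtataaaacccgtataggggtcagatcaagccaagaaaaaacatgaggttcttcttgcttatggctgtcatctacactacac

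RefSeq windows were found for 30 of the 43 genes. The PU box was present in 15 of the 30, against 31.3% of all 27025 genes of the same table and 28.3% of its 32851 windows. It was in the windows of 6 of 8 macrophage genes, 2 of 2 C1q genes and 1 of 5 mast cell genes. The longer motif, which overlaps the PU box, was present in 4 of 30 genes, namely Cd53, Ctss, Pf4 and C1qc, against 3.69% of all genes and 3.2% of all windows. The GATA motif was in 10 of 30 genes, among them the mast cell genes Cpa3, Fcer1a and Ms4a2 and both subunits of the phagocyte oxidase, Cybb and Cyba, against 12.7% of all genes and 11.2% of all windows. These matches describe letters in the windows and are no measure of binding.

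The values are MAS5 signals, the linear brightness of a probe set after background subtraction. Each pair of arrays was first brought to the same trimmed mean. Signals under a floor, 77.6 on the first type and 133 on the other, were raised to the floor, and the log2 ratio is that of knockout to wildtype. A ratio with 1 array at the floor is therefore a lower bound on the size of the difference, and a gene with both arrays below the floor has no ratio. Signals of different probe sets were ranked only to choose the value of a gene and the genes to describe. They were also summed over lists of genes.

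Some facts of the whole series bear on every ratio below. The targeted gene loricrin read 2013 in the knockout array and 41224 in its wildtype counterpart, for a ratio of -4.36, and it was read on the first type only. Sex-linked transcripts differed too, with Xist, which is made in female cells, at 857 in knockout and 24.8 in wildtype and the Y-linked Eif2s3y at 42.8 and 1071, so sex and genotype cannot be told apart. The 9 bacterial spike-in probe sets had a mean log2 ratio of -0.69 on the first type, so all directions are relative to the typical gene; scaled to the spike-ins, all genes above the floor have a median ratio of 0.70. In whole skin, fewer cells of a type and less RNA per cell cannot be told apart.

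No immune cell gene passed a 2-fold difference between the genotypes, by its brighter probe set, although 7 had only a bound and 10 no ratio. Of the 42 on the first array type, 0 passed in either direction, where 2.22% of all genes passed that size in either direction. Of the 2 on the second type, 0 passed, where 3.79% of all genes did. Signals exceeded the floor in both arrays for 25 of the 42 genes, in the wildtype array only for 5, in the knockout array only for 2 and in neither for 10. Among the 26 genes with a mean log2 signal over the floor, 10 ratios were above 0 and 16 below, and the median was -0.11, with the middle 50% of ratios between -0.48 and 0.17. The 5653 genes of the array that met the same condition had a median of 0.023, with the middle 50% between -0.23 and 0.26, and 47.4% of them had a ratio below 0. Scaled to the spike-ins, 24 of the 26 ratios were above 0, so the balance of signs holds only relative to the typical gene.

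**Figure D1:**
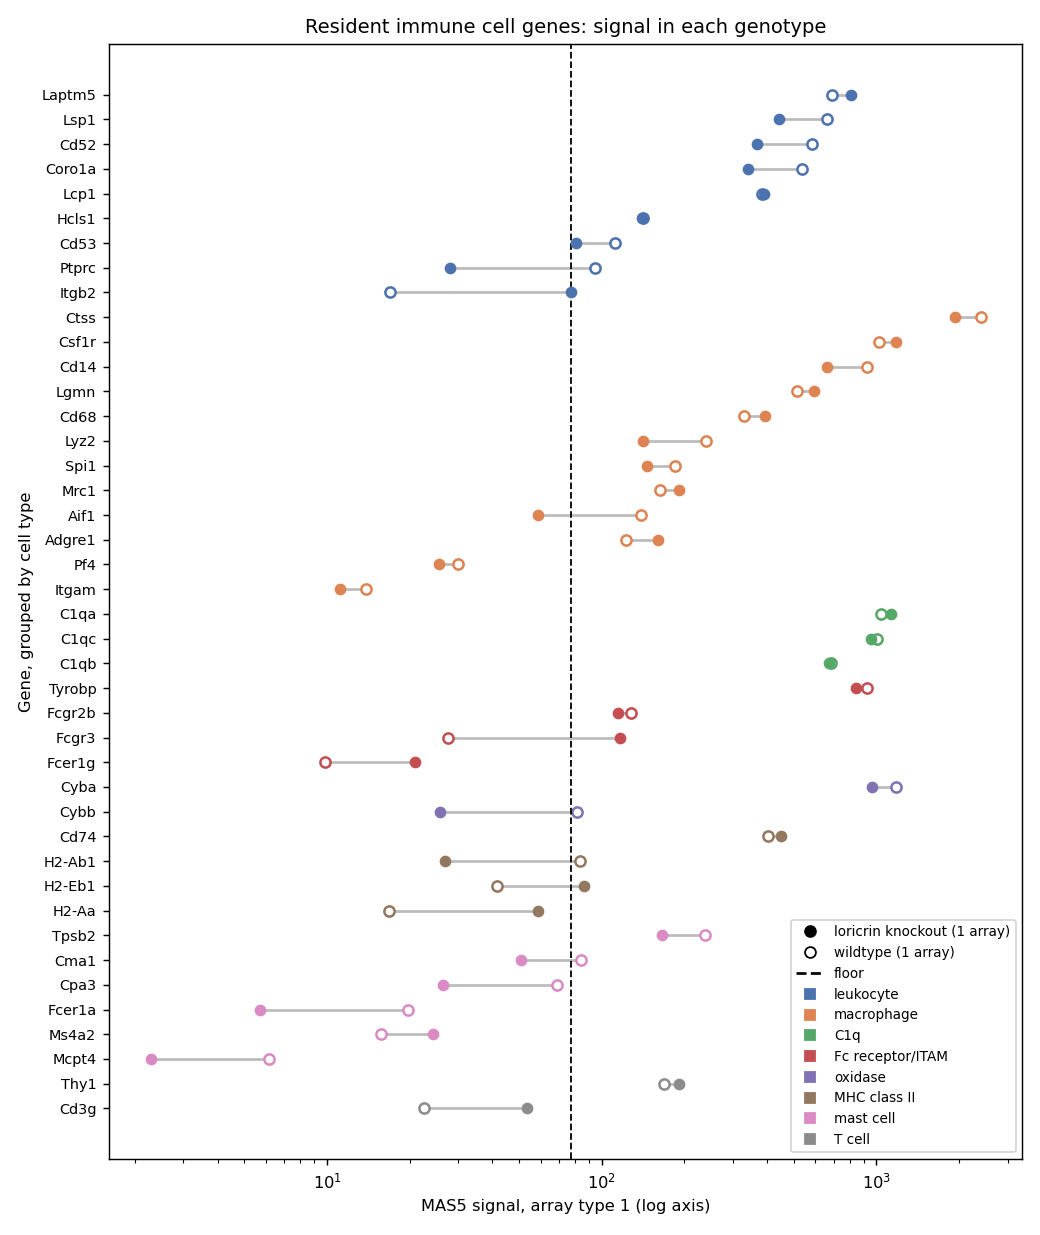
MAS5 signal of each of the 42 immune cell genes on the first array type (log axis), with the knockout array as a filled circle, the wildtype array as an open circle and a grey line joining them. The dashed line is the floor of 77.6, and 10 genes have both circles below it; genes are grouped by cell type and 1 array stands behind each circle.

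Of 12 macrophage genes, 9 were above the floor in both arrays, and of the 10 with a mean log2 signal above it 5 ratios lay on each side of 0. Csf1r, the receptor for colony-stimulating factor 1, read 1177 in the knockout array and 1023 in the wildtype array, for a log2 ratio of 0.20. The lysosomal glycoprotein gene Cd68 read 393 and 329, a ratio of 0.26, and Mrc1, the mannose receptor of tissue macrophages, read 192 and 163, a ratio of 0.23. Adgre1, which encodes the F4/80 antigen, read 160 and 122, a ratio of 0.39. These 4 genes thus each stood slightly higher in the knockout array, by 1.15-fold to 1.31-fold. Each of these ratios is smaller than the spread between the array types. The SD of a single gene's ratio across the types, over 1081 genes on both, was 0.40. The 5 ratios below 0 include those of other surface and lysosome genes, such as Cd14 and Ctss.

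Other macrophage genes stood lower in the knockout array. Ctss, the cathepsin that trims the invariant chain during antigen presentation, read 1934 and 2401, a ratio of -0.31. The lipopolysaccharide co-receptor gene Cd14 read 662 and 925, a ratio of -0.48. Lyz2, the lysozyme gene of macrophages and neutrophils, read 141 and 240, a ratio of -0.76. Aif1, which encodes the actin-binding protein IBA1, read 58.5 and 139, so that its knockout signal lay below the floor and it was at least 1.79-fold lower. Lyz2 and Aif1 were the macrophage genes past 1.5-fold. The transcription factor gene Spi1 read 146 and 185, a ratio of -0.34. Lgmn, a lysosomal protease that other cells also make, stood higher in the knockout array instead, at 592 and 512 with a ratio of 0.21. Itgam, the integrin chain CD11b, and Pf4, a chemokine of platelets and some macrophages, read below the floor in both arrays.

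The C1q chains were read at nearly equal levels in the genotypes. C1qa read 1128 in knockout and 1041 in wildtype, C1qb 671 and 685, and C1qc 954 and 1006. Their log2 ratios were 0.12, -0.030 and -0.077, at most 1.08-fold apart. The 3 genes lie next to each other on chromosome 4, and their chains assemble into the single C1q molecule that starts the classical complement pathway.

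Receptors for antibody and their signalling partners were measured in part. Tyrobp, which encodes the adaptor DAP12 that couples many myeloid receptors to the kinase Syk, read 840 and 927, a ratio of -0.14. Fcgr2b, the inhibitory receptor for IgG, read 114 and 128, a ratio of -0.16, with both signals near the floor. Fcgr3, an activating receptor for IgG, read 116 in knockout and 27.5 in wildtype, so it was higher in the knockout array by a bound of 0.58 on the log2 scale. Fcer1g, the adaptor that Fcgr3 and the IgE receptor share, read 20.8 and 9.83, below the floor in both arrays, and a second Fcer1g probe set did likewise.

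The subunits of the phagocyte NADPH oxidase, which makes superoxide, were the only pair of which 1 member was read on both array types. Cyba, the small subunit, which many cell types express, read 964 and 1183, a ratio of -0.30. Cybb, the large subunit, read 25.8 and 81.2 on the first type, where the wildtype signal lay just above the floor and the bound was -0.065. On the second type Cybb read 391 and 452, a ratio of -0.21. A second Cybb probe set on that type read 261 and 234, a ratio of 0.16, so the direction of Cybb differed between its probe sets. Limma's comparison over both types was fitted to 1081 genes with a mean log2 signal above the floor on each, and it held 0 of the immune cell genes, because the mean log2 signal of Cybb on the first type and both arrays of H2-Eb1 on the second lay below the floor. With the floor lowered to the 20th percentile Cybb entered the fit, with a mean log2 ratio of -0.93 (SE 0.42) and a limma adjusted p of 0.719. By its brighter probe set it was then lower on 2 of 2 types, at -1.65 on the first and -0.21 on the second. The larger ratio came from the signals of 25.8 and 81.2, of which the knockout one lay below the floor as reported.

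MHC class II genes, which present antigen to helper T cells, were close to the floor apart from Cd74. Cd74, the invariant chain that escorts class II molecules, read 451 and 402, a ratio of 0.16. H2-Ab1 read 27.0 and 83.5 and H2-Eb1 read 86.5 and 41.6, so each had 1 array just above the floor, in opposite genotypes. H2-Aa read 58.5 and 16.8, below it in both. On the second type H2-Eb1 read 12.1 and 9.55, below the floor there as well. These 3 chains are neighbours on chromosome 17, and no direction can be given for them.

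Genes shared by leukocytes leaned lower in the knockout array. Of 9 such genes 7 had a mean log2 signal above the floor, and 5 of these 7 were below 0, with a list median of -0.47, against 0.023 for all genes. Scaled to the spike-ins, all 7 were above 0, with a median of 0.22 against 0.70 for all genes. Cd52, a small surface glycoprotein of lymphocytes and monocytes, read 369 and 585, a ratio of -0.67 or 1.59-fold lower. Coro1a, an actin regulator of leukocytes, read 341 and 536, a ratio of -0.65 or 1.57-fold lower. The leukocyte actin-binding protein gene Lsp1 read 443 and 662, a ratio of -0.58, and the tetraspanin gene Cd53 read 80.8 and 112, a ratio of -0.47. Laptm5, a lysosomal membrane protein of blood cells, went the other way, at 811 and 686 with a ratio of 0.24. The actin bundler Lcp1 and the kinase substrate Hcls1 had ratios of 0.021 and -0.019. Ptprc, which encodes CD45, the defining marker of leukocytes, read 28.1 and 94.4, so it was at least 1.22-fold lower. Its wildtype signal lay just above the floor, and its other probe sets were below the floor in both arrays. Under spike-in scaling the ratio of Ptprc was 0. Itgb2, the shared chain of leukocyte integrins, read 77.5 and 16.9, below the floor in both arrays.

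At a smaller size of 1.5-fold, 4 of the 26 genes with a mean log2 signal above the floor passed, or 15.4%, against 13.0% of all such genes on the array. All 4, Cd52, Coro1a, Lyz2 and Aif1, were lower in knockout, where 6.76% of all genes were past that size downward and 6.24% upward. Under spike-in scaling 0 of the 26 were past 1.5-fold downward and 13 upward, against 1.12% and 62.2% of all genes. There Cd52 and Coro1a turned to 0.021 and 0.036, while Lyz2 and Aif1 stayed below 0 at -0.078 and -0.48. Measured against the SD of 0.40 between the array types, 8 of the 26 were lower by more than that, or 30.8%, and 0 were higher, against 13.9% lower and 14.5% higher among all genes. The 8 include Tpsb2, whose other probe set went the opposite way. Under spike-in scaling 1 was lower and 15 were higher by more than that, against 1.83% and 78.8% of all genes. No replicate stands behind any of these ratios, so how they compare with the spread between animals was not tested.

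**Figure D2:**
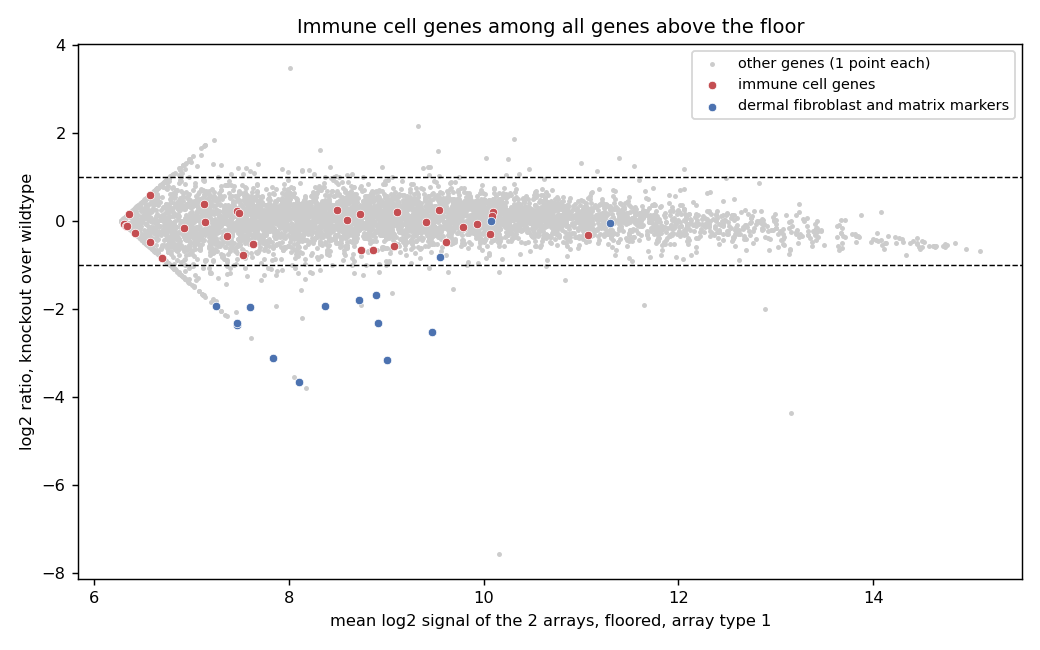
Log2 ratio of knockout over wildtype against the mean log2 signal of the 2 floored arrays of the first type, for 5977 genes with at least 1 array above the floor. The 32 immune cell genes (red) all lie between the dashed 2-fold lines, whereas 12 of the 15 dermal fibroblast and matrix markers (blue) lie below the lower line; the slanted edges at left come from the floor.

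Mast cell genes gave little signal on the first array type. A signal below the floor is no measure of absence, here or for other cell types. The further gene Maf, for example, read 15.5 and 15.0 on the first type but 960 and 1631 on the second. Tpsb2, a tryptase, was the 1 gene of 6 with both arrays above the floor. Its brighter probe set read 166 and 237, a ratio of -0.52. Its other probe set read 178 and 73.2, at least 2.30-fold higher in knockout, so the direction of Tpsb2 differed between its probe sets and none can be given. Cma1, the mast cell chymase, read 50.8 and 84.2, with the wildtype array just above the floor. The carboxypeptidase gene Cpa3 read 26.4 and 68.7, the chymase gene Mcpt4 2.28 and 6.13, and the IgE receptor genes Fcer1a and Ms4a2 5.69 and 19.6, and 24.3 and 15.7, all below the floor in both arrays.

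Of the T cell genes, Cd3g, a chain of the T cell receptor complex and the more specific marker, read 53.6 and 22.6, below the floor in both arrays. Thy1, which dermal fibroblasts and nerves also express, read 191 and 169, a ratio of 0.18. Most defining genes of mast cells and T cells on the list thus lay at or under the floor.

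Several genes had more than 1 probe set above the floor, which gives a check within the same RNA. On the first type Lsp1 read -0.58 and -0.42, Laptm5 0.24 and 0.16, and Cyba -0.30 and -0.13, each pair on the same side of 0. C1qb read -0.030 and 0.14. Of genes with a pair of probe sets above the floor in both arrays, 3 of 4 on the first type shared a sign, against 58.9% of 838 genes. On the second type 0 of 1 did, namely Cybb, against 61.9% of 1057 genes. Tpsb2 was not in this count, because 1 of its probe sets had an array at the floor, and its probe sets fell on opposite sides of 0. Over those 838 genes the ratios of a pair differed by a median of 0.30 on the log2 scale, against a median size of 0.25 for the 26 ratios of immune cell genes above the floor.

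**Figure D3:**
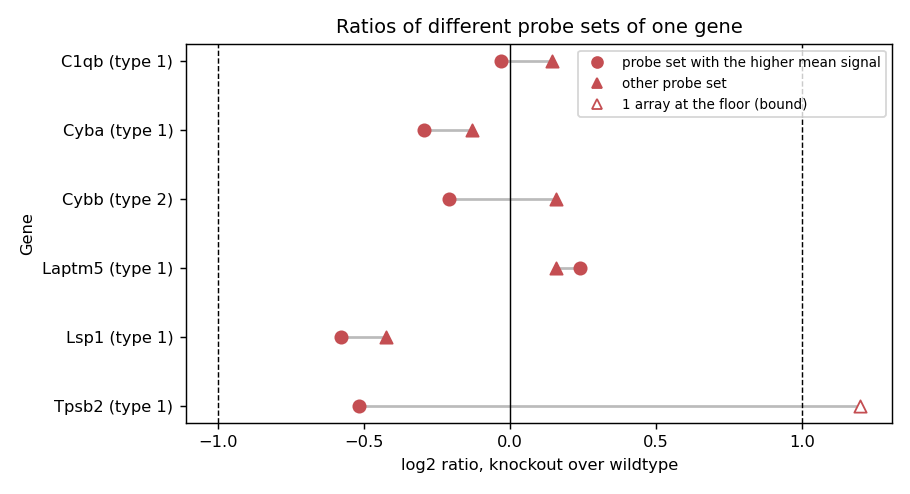
Log2 ratio of knockout over wildtype for the 6 immune cell genes with more than 1 probe set above the floor on a type. Circles are the probe sets with the higher mean signal, triangles the others and the open triangle a lower bound; the probe sets of C1qb, Cybb and Tpsb2 fall on opposite sides of 0, and those of Tpsb2 span from -0.52 to 1.20.

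Markers of dermal fibroblasts and of red blood cells were lower in the knockout array by more than 2-fold in many cases. Of 15 dermal fibroblast and matrix genes on the first type 12 were at least 2-fold lower in knockout, where 1.38% of all genes were. None was at least 2-fold higher, and of the 15 ratios 14 were below 0 and 1 above, at 0.007. Their median ratio was -1.96, and -1.57 under spike-in scaling with 11 still past 2-fold, and their summed signal was 5841.1 in knockout and 14369.5 in wildtype. Of the 6 erythroid genes on the first type 3 were at least 2-fold lower and 1 was higher, with a ratio of 0.82. The other 2 had signals under the floor on each array and have no ratio. The summed signal of the 6 was 5776.7 in knockout and 21907.9 in wildtype. Under spike-in scaling 3 erythroid genes were at least 2-fold lower and 1 was at least 2-fold higher. Among 9 endothelial genes 0 passed 2-fold, although 5 had no ratio and 2 only a bound, and the summed signal was 692.9 and 1242.5. The 2 endothelial genes with a mean log2 signal above the floor were both lower in knockout, with a median of -0.83, and -0.14 under spike-in scaling. Among 9 keratinocyte genes 1 passed 2-fold, Trp63, which was higher, and 3 had no ratio. Of the 6 keratinocyte genes with a ratio 5 were below 0, with a median of -0.48, which became 0.21 under spike-in scaling. Their list had a summed signal of 92468.7 and 128732.3. None of 10 skeletal muscle, 7 adipocyte and 5 melanocyte genes passed. However, 7 of the muscle and 5 of the adipocyte genes had no ratio, so a pass was not possible for them. For genes with a mean log2 signal above the floor, the median was -0.21 over 3 muscle genes. It was -0.19 over 2 adipocyte genes and 0.44 over 4 melanocyte genes. Of 4 Schwann cell genes 1 passed, Pmp22, which was at least 2.51-fold lower, and on the second type the melanocyte gene Dct was 2.21-fold higher. The immune cell genes summed to 14149.5 and 15557.9, a ratio of 0.909, while all genes of the array had a ratio of sums of 0.928. No marker was at a signal of 0. The part of these other cells in the immune gene ratios was not tested.

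**Figure D4:**
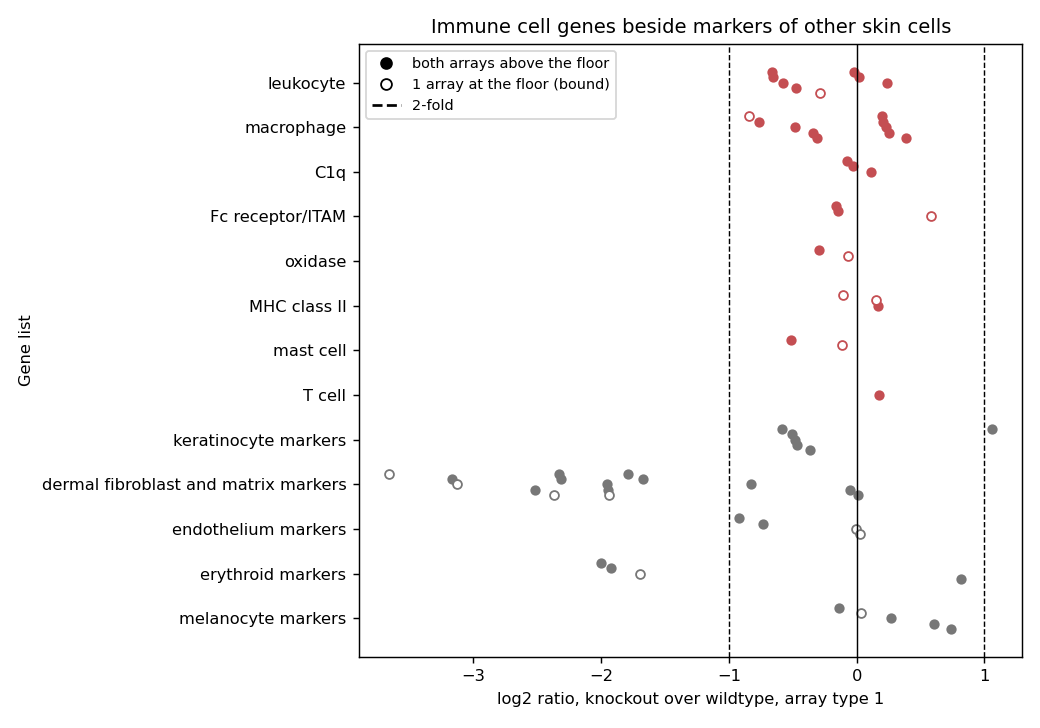
Log2 ratio of knockout over wildtype on the first array type for immune cell genes by group (red) and for markers of other skin cells (grey), 1 point per gene with at least 1 array above the floor. Filled points have both arrays above the floor and open points are lower bounds; all red points lie within the dashed 2-fold lines, and most dermal fibroblast and matrix markers lie below -1.

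Beyond the 43 genes, 151 further immune genes were listed, of which 126 were on the first type and 77 had at least 1 array above the floor. Among the 126, 3 passed 2-fold downward in knockout and 0 upward, against 1.38% and 0.836% of all genes. Under spike-in scaling 0 of the 126 passed downward and 12 upward, against 13.5% of all genes upward. The 3 then had ratios of -0.58 for Ncf1, -0.96 for Id2 and a bound of -0.75 for Camp. Ncf1, the p47 subunit that activates the phagocyte oxidase, read 123 and 295, a ratio of -1.26. Id2, a transcriptional regulator that Langerhans cells need but that many other skin cells express, read 302 and 943, a ratio of -1.64. Camp, the antimicrobial cathelicidin of neutrophils, read 34 and 169, at least 2.17-fold lower. The 66 genes of these lists with a mean log2 signal above the floor had a median ratio of -0.088, with 25 above 0 and 41 below.

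The ratios of these further genes ran from -1.64 to 0.80, and those of the 26 immune cell genes above the floor from -0.84 to 0.39. Of 32 macrophage genes on the first type 0 passed 2-fold, and the median of the 22 above the floor was -0.11. Cebpa, a transcription factor of myeloid cells that keratinocytes also express, read 10450 and 12229, and the lysosomal protease gene Ctsd read 8809 and 9572. Of 25 signalling and cytoskeleton genes 1 passed, Ncf1, with the kinase gene Syk at 604 and 424. Of 16 genes for class II machinery and dendritic cells 1 passed, Id2, with Cd24a at 14901 and 21263 and the thiol reductase gene Ifi30 at 3358 and 3779.

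Mast, lymphoid and neutrophil genes were again mostly near the floor. Of 12 further mast cell genes 0 passed 2-fold, with Gata2 at 198 and 206 and Ltc4s, the leukotriene C4 synthase, at 125 and 245, just short of 2-fold lower. Of 25 genes of T, NK and B cells 0 passed and 14 were below the floor in both arrays, with Blnk, an adaptor of B cells, at 1250 and 903 and Zap70 at 325 and 316. Of 16 neutrophil genes 1 passed, Camp, and 10 were below the floor in both arrays, with Csf3r at 492 and 317 and Lcn2 at 190 and 201. Ly6g, Mpo and Ngp, which mark neutrophils and their precursors, were below the floor in both arrays.

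The second array type held 24 of these further genes, 6 of them on that type only, 13 with at least 1 array above the floor, and 0 passed 2-fold. Maf, a macrophage transcription factor, read 960 and 1631, a ratio of -0.76. The lysosomal glycoprotein gene Gpnmb read 683 and 555, a ratio of 0.30. Alox5ap and Alox5, which start leukotriene synthesis, read 1166 and 1596, and 461 and 601, with ratios of -0.45 and -0.38. Of genes on both types, Ctsc had ratios of -0.0050 and 0.17, Stab1 0.51 and -0.014, Ifi30 -0.17 and -0.35, and Cd44 -0.34 and 0.071, so only Ifi30 among these 4 kept its sign.

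The median ratio of the immune cell genes moved with the scaling, as did that of all genes. Under spike-in scaling it was 0.58 on the first type, against 0.70 for all genes, and 1 gene, Adgre1, was at least 2-fold higher with a ratio of 1.08, where 13.9% of all genes passed 2-fold. Relative to the median of all genes it was -0.13 as reported and -0.12 under spike-in scaling. Such scaling multiplies all signals of an array by the same factor, so it can hardly move that gap. With the median over probe sets the gap was -0.055. The count past 2-fold also moved with the floor. With it at the 20th percentile, 5 were higher and 5 lower, where 8.76% of all genes passed. All 10 had at least 1 signal below 77.6 as reported.

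**Figure D5:**
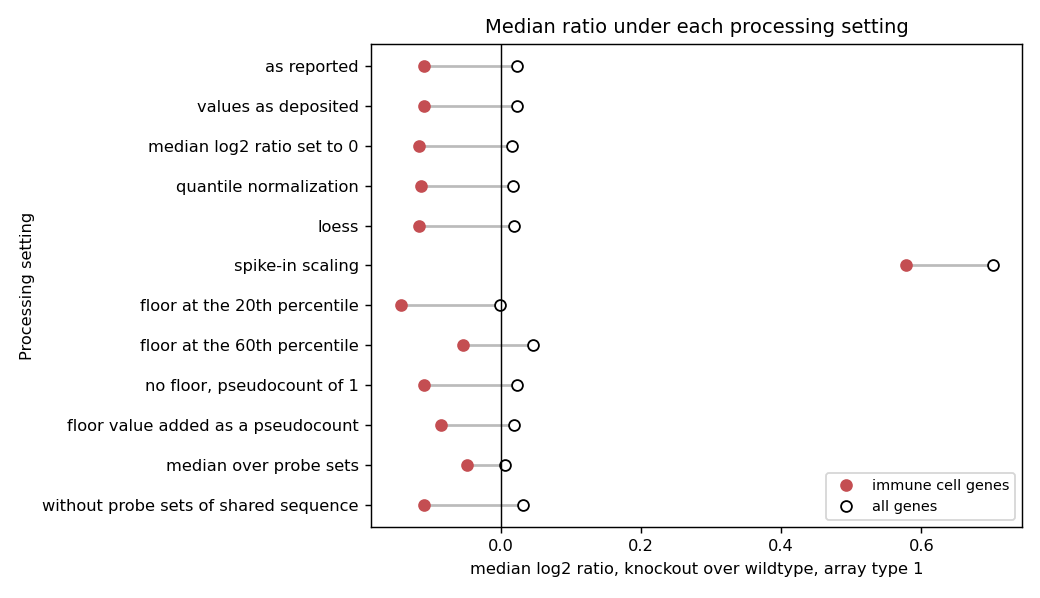
Median log2 ratio of knockout over wildtype on the first array type under each processing setting, for the immune cell genes with mean signal above the floor (red) and for all such genes (open circles). The red point lies to the left of the open one in all 12 settings, and both shift to the right, to 0.58 and 0.70, under spike-in scaling.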

How the data were processed

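The authors deposited linear intensity values, 1 for each probe set on each array, and the submitters' processing notes name MAS5. Its version, scaling target and detection calls are not given in the sources used. From these, both arrays of a type were scaled to 1 shared 2% trimmed mean, signals under the mean of their 40th percentiles were raised to it, and log2 ratios of knockout to wildtype were computed. The 66 control probe sets per type were left out. Genes were named from probe sets that list 1 gene, 10833 of 12422 and 10581 of 12411, with symbols updated through RefSeq (GRCm38.p6). A probe set that names Lyz1 and Lyz2 together was not used. With 1 array per genotype and type, genes were called by a size of 2-fold. Limma 3.58.1 (lmFit, eBayes, Benjamini-Hochberg) compared the genotypes over genes on both types with the array type as block. Whether the arrays held separate animals is not stated, so its p-values measure only the spread between these arrays.

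Members were to be described one by one if on both types, past 1.5-fold or among the 4 of highest signal of their group. Values were also given for members outside that rule, among them Cd68, Mrc1, Adgre1, Spi1 and Cd53. Further listed genes were described if past 2-fold or among the 2 of highest signal of their list. Markers were named only if past 2-fold, and those of dermal fibroblasts and red blood cells are given as counts. A result for 1 further listed gene is not reported here. Ltc4s, Ptprc, Ly6g, Mpo, Ngp and the further genes on both types were named after their values were seen. The members and lists were chosen with earlier results of these data known. Steps were tested on simulated data. Arrays carry no read depth, and their number limits the precision.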

Additional observations from a re-analysis of the deposited data

How the results depend on the processing

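The count of immune cell genes past 2-fold on the first type was 0 under 8 of the 11 alternatives of scaling, floor and value per gene. It was 1 of 42 when scaled to the spike-ins, 10 with a 20th percentile floor and 13 with no floor and a pseudocount of 1. Under these settings 13.9%, 8.76% and 13.9% of all genes passed. Each of the 13 had at least 1 signal below the floor as reported. At a size of 1.5-fold the count was 4, and 13.0% of all genes with a mean log2 signal above the floor passed. On the second type the count of immune cell genes was 0 under all of these. The median on the first type lay between -0.14 and -0.048 except under spike-in scaling, at 0.58. On the second type, where it is the value of Cybb alone, it was 0.44 under spike-in scaling and -0.025 with the median over probe sets. All genes past 2-fold numbered 183 and 286 on the types as reported, 1150 and 1039 when scaled to the spike-ins, 723 and 902 with a 20th percentile floor, 58 and 70 with a 60th percentile one, and 1145 and 1320 with no floor. With the floor value as a pseudocount 111 passed on the first type. Probe sets past 2-fold were higher in 41.7% and 44.7% of cases, and in 96.6% and 95.9% under spike-in scaling. Limma called 1 of 1081 genes, and 110 at an unadjusted p under 0.05. This fit held 0 of the immune cell genes, so none of them could be called. It called 591 of 1075 under spike-in scaling, 18 with the median over probe sets, 10 under loess, 8 without probe sets of shared sequence and 6 with a 60th percentile floor. It called 0 under quantile normalization, with a 20th percentile floor, with no floor and with the floor value as a pseudocount, and 100, 84, 95 and 97 at an unadjusted p under 0.05. Without the array type as a replicate block it called 0, with 0 at an unadjusted p under 0.05, and 0 immune cell genes entered that fit. Leaving out an array removes the only array of its genotype on a type, so no such value exists. Genes near the floor are limited by signal over background.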
